A study of Mus musculus with 17 samples.

Results

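Genes of the interleukin-6 (IL-6) family and of its STAT3 feedback are described across 17 RNA sequencing libraries of mouse pancreatic stellate cells. They were chosen by name, as 4 ligands (Il6, Lif, Il11 and Clcf1), 4 receptor chains (Il6st, Il6ra, Lifr and Osmr), the transcription factor Stat3 and its feedback inhibitor Socs3, and they are 10 of the 35896 gene IDs counted. All 10 had enough counts to be tested. IL-6 family cytokines bind a ligand-specific receptor chain that joins gp130, the shared signalling chain encoded by Il6st. Janus kinases on the paired chains then phosphorylate STAT3, which enters the nucleus and induces, among other genes, Socs3, whose protein binds gp130 and shuts the signal down. In pancreatic tumours this axis is known from fibroblasts with an inflammatory state, which secrete IL-6 and LIF.

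Stellate cells are the pancreatic cells that can become fibroblasts, and the series compares the states they take in culture. Cells of the lines PSC4 and PSC5, both labelled WT and from C57BL/6J mice, were grown in Matrigel, a basement membrane gel, and collected on day 4. The control group (5 libraries) had control medium. The TGF-beta group (4 libraries) had the same medium with 20 ng/mL TGFbeta. The CM group (4 libraries) had medium conditioned by pancreatic tumour organoids, and the neratinib group (4 libraries) had CM with 300 nM neratinib, which blocks the kinases of the ERBB receptors. The labels do not say how the lines were derived and name no vehicle for the groups without neratinib. PSC4 was at passages 23 to 25 and PSC5 at passages 27 and 28. The replicate number of a line goes with its passage, and no other label says that replicates came from separate cultures, so p-values measure the spread between these libraries, which may be partly technical.

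Library totals lay between 22168953 and 29421447 counts. On the third principal component of all tested genes, which held 14.9% of the variance, the control, CM and neratinib libraries that carry the label PSC4 replicate 1 lay between 1.8 and 37, with the PSC5 libraries (-3.6 to 36.2) and apart from the other PSC4 libraries (-56.8 to -19.7). Results are therefore also given without these 3 libraries. The 11 stellate cell and fibroblast markers were all detected, with summed levels of 5458 to 6993 CPM in control (CPM being edgeR's counts scaled to the library total with TMM factors). The summed level of 15 epithelial markers was 17.2 to 28.3 CPM in control, where Esrp1 was at 0, and 16.3 to 22.4 CPM with TGF-beta. It was 23.3 to 190 CPM in CM and 10.1 to 333 CPM with neratinib. In these groups 8 and 11 of the 13 epithelial markers tested were called higher than in control, against 7.05% and 22.2% of all genes. CM came under the codes T6 and T8, which the labels do not explain. The epithelial sum was 151 to 333 CPM in the 4 libraries with T6 and 10.1 to 53.9 CPM in the 4 with T8. Of the leukocyte markers, Adgre1, Tyrobp and Cd3e were at 0 in all groups, and the sum of 8 such markers was at most 13.5 CPM. In bulk libraries fewer cells of a type and less RNA per cell cannot be told apart.

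The promoters of Il6, Lif, Il11 and Socs3 are shown because they hold every motif match found among the promoters of the 10 genes. They are the 250 bases before the RefSeq start on GRCm38.p6, read on the gene's strand, for the second of the Il11 starts. The motifs searched on both strands were 3: a STAT motif (TTCNNNGAA), an AP-1 motif (TGANTCA) and the kappa B motif. Capitals mark the matches, and no matches overlapped.

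Il6, chr5:30012864-30013113, plus strand: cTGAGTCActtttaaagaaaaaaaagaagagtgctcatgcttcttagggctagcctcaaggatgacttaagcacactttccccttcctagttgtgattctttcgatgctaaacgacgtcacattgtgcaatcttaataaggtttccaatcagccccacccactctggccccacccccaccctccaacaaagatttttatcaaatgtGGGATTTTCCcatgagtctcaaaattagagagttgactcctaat
Lif, chr11:4257318-4257567, plus strand: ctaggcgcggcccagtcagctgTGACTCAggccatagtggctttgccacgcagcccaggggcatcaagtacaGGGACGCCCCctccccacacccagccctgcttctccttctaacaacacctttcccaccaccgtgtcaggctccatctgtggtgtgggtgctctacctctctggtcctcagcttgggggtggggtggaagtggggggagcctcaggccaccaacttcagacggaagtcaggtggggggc
Il11, chr7:4778142-4778391, minus strand: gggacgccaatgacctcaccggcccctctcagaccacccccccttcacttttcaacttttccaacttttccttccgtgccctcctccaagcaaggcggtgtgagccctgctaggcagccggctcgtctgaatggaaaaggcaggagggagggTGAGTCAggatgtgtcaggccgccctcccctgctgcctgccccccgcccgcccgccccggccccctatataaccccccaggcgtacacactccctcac
Socs3, chr11:117969367-117969616, minus strand: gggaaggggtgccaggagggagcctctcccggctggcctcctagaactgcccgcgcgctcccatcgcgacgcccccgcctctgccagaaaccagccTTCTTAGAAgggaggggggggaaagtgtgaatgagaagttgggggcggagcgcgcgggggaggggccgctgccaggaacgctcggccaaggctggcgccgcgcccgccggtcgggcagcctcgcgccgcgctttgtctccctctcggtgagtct

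In the Il6 promoter the AP-1 motif lay 249 to 243 bases and the kappa B motif 44 to 35 bases before the start. In that of Lif they lay at 228 to 222 and 178 to 169 bases. The Il11 promoter held an AP-1 motif at 98 to 92 bases, and the Socs3 promoter held the STAT motif at 154 to 146 bases. RefSeq promoters were found for 9 of the 10 genes (11 promoters), not for Clcf1. Among these 11, 1 held the STAT motif, 3 the AP-1 motif and 2 the kappa B motif. Of 32851 promoters of the same length, 7.02% held the STAT motif, 6.75% the AP-1 motif and 7.25% the kappa B motif. A match describes these letters only.

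The 10 genes differed widely in level. Per kilobase of exon, the signalling chain Il6st was highest in control medium (50.8 CPM per kb, mean of 5 libraries), followed by Lifr (34.5), Osmr (34.2), Stat3 (30.6) and Socs3 (23.4). The gap between Lifr and Osmr was smaller than the standard deviation of either (5.27 and 4.89 CPM per kb). That between Osmr and Stat3 was smaller than the standard deviation of Osmr and larger than that of Stat3 (2.56 CPM per kb). These standard deviations measure the spread between libraries only. The length used joins all annotated exons of a gene, and the order under other lengths was not tested. Clcf1 (8.95 CPM per kb) and Il6ra (7.97) came next, and Lif (3.39), Il6 (0.721) and Il11 (0.340) were lowest. Over all 17 libraries the order of the first and the last gene was the same, with Il6st at 47.8 and Il11 at 0.741 CPM per kb. The widest range between libraries was that of Il6, at 47.9-fold between the lowest and the highest CPM.

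With TGF-beta most of the genes were lower than in control, and in CM and CM with neratinib part of them were higher. A gene is called where edgeR's quasi-likelihood test gave a Benjamini-Hochberg adjusted p under 0.05 over 13923 genes. With TGF-beta 1 of the 10 genes was called higher than in control (19.7% of all genes tested) and 6 lower (20.5%), where 40.2% of all genes were called in either direction. The groups did not overlap for these 7 genes, as for 32.7% of all genes. The median log2 fold change was -0.569 over the 10 genes against -0.02 over all genes. CM called 4 of 10 higher and 0 lower, against 7.05% and 7.14% of all genes and 14.2% in either direction, with a median of 0.606 against 0. The CM and control libraries did not overlap for 5 of the 10 genes (Il6, Lifr, Osmr, Stat3 and Socs3), as for 19.8% of all genes. The number called was 1 without CM PSC5 replicate 1 and 5 without the 3 libraries labelled PSC4 replicate 1. Neratinib with CM called 5 higher than control and 1 lower, against 22.2% and 20.9% of all genes and 43.1% in either direction, with a median of 0.536 against 0.005. Here 4 of the 10 genes (Il6, Clcf1, Il6ra and Socs3) did not overlap with control, against 29.4% of all genes. Between neratinib and CM 1 gene was called higher and 1 lower, against 10.8% and 9.63% of all genes, and 20.5% in either direction. This last share is close to the 2 of 10 found here. Between these groups 1 gene, Il6ra, did not overlap, against 18.7% of all genes. These comparisons share control or CM libraries.

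**Figure D1:**
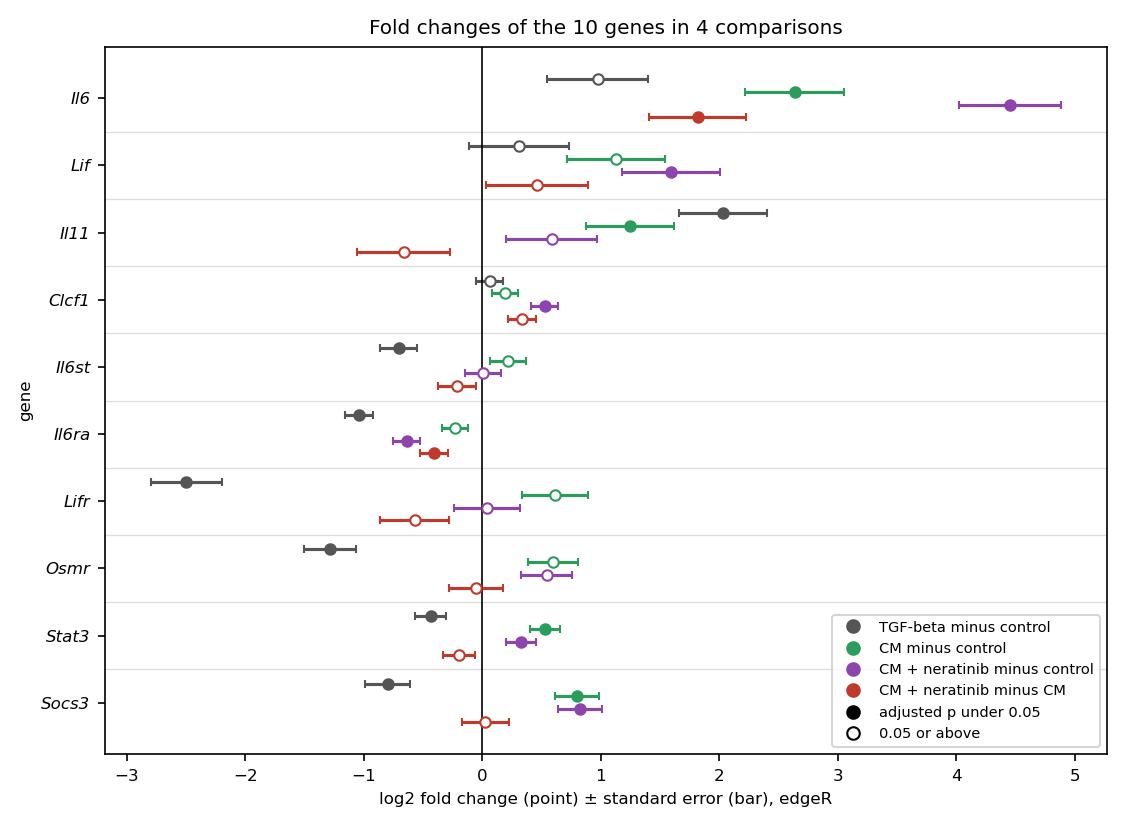
Log2 fold change (x axis, edgeR, point) with its standard error (bar) of the 10 genes (y axis) in 4 comparisons, with filled points for an adjusted p under 0.05. The TGF-beta points of the 4 receptor chains, Stat3 and Socs3 lie left of 0, and the Il6 points of the neratinib group against control lie furthest right, at 4.46.

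Il6, which encodes the founding cytokine of the family, was lowest in control and highest with neratinib. In the library order used throughout (PSC4 by number, then PSC5 by number), its control levels were 1.15, 2.29, 2.47, 1.08 and 1.77 CPM. With TGF-beta (PSC4 replicates 2 and 3, PSC5 replicates 1 and 2) they were 3.72, 5.13, 2.28 and 2.56 CPM. In CM (replicates 1 and 2 of each line) they were 8.73, 9.17, 19.5 and 4.79 CPM. With neratinib the libraries of the same lines and numbers held 48.5, 31.9, 51.6 and 19.2 CPM. Every CM library was above every control library, and CM and neratinib overlapped only in that the highest CM library (19.5 CPM) lay just above the lowest neratinib library (19.2 CPM), both of PSC5. The group means were 1.75 ± 0.635 CPM in control (SD, n = 5), 10.6 ± 6.30 CPM in CM (SD, n = 4) and 37.8 ± 15.1 CPM with neratinib (SD, n = 4). Against control, Il6 rose in CM (log2 fold change 2.64 ± 0.42 SE, adjusted p 0.00124, edgeR) and with neratinib (4.46 ± 0.43 SE, adjusted p 5.42e-06, edgeR). The difference between neratinib and CM was 1.82 (SE 0.41, adjusted p 0.00717, edgeR), and 1.61 (adjusted p 0.0403) without the libraries labelled PSC4 replicate 1. With only the 8 CM libraries in the model it was 1.85 and not called (adjusted p 0.0655, edgeR). For TGF-beta the value was 0.97 (SE 0.42, adjusted p 0.0804, edgeR), with 4 of 4 libraries above the control mean. It was called with only these 2 groups in the model (1.00, adjusted p 0.0145, edgeR) and by DESeq2 (0.99, adjusted p 0.0363).

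Lif encodes leukaemia inhibitory factor, which signals through Lifr and gp130. Its control levels were 19.6, 9.97, 6.66, 17.3 and 20.0 CPM, and those with TGF-beta 9.95, 11.5, 33.4 and 26.8 CPM. In CM they were 35.7, 19.3, 51.5 and 27.6 CPM and with neratinib 69.0, 14.9, 59.4 and 36.4 CPM. Within the first 2 groups PSC4 replicates 2 and 3 were the lowest, and PSC4 replicate 2 was also the lowest in both groups with CM. All groups overlapped with control. Lif rose with neratinib against control (log2 fold change 1.59 ± 0.41 SE, adjusted p 0.00661, edgeR), where the means were 44.9 ± 24.2 CPM (SD, n = 4) and 14.7 ± 6.06 CPM (SD, n = 5). This call was lost without the neratinib library PSC4 replicate 1 (0.95, adjusted p 0.0575), and the value was 1.18 (adjusted p 0.00234) with all 3 libraries of that number removed. In CM the value was 1.13 (SE 0.41, adjusted p 0.0803, edgeR), and with the replicate block, which compares libraries of the same line and number, it was called at 0.99 (adjusted p 0.00554, edgeR). It was also called in 5 other alternatives, among them the removal of the libraries labelled PSC4 replicate 1 (1.10, adjusted p 0.00888) and of control PSC4 replicate 1 alone (1.39, adjusted p 0.0435). For TGF-beta the value was 0.31 (adjusted p 0.589), and 0.57 with the block (adjusted p 0.0369, edgeR). Between neratinib and CM the Lif value was 0.46 (SE 0.43, adjusted p 0.484, edgeR) and was not called. In 3 of 4 pairs of the same line and number Lif was higher with neratinib than in CM.

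Il11 encodes interleukin-11, a ligand of the Il11ra1 and gp130 pair, and was the only ligand of the 4 called with TGF-beta. Control libraries held 0.795, 0.322, 0.352, 0.970 and 1.10 CPM, from 9 to 31 counts each. TGF-beta libraries held 2.07, 2.82, 3.05 and 3.74 CPM, from 55 to 92 counts. All 4 were above all 5 control libraries, and Il11 rose (log2 fold change 2.03 ± 0.37 SE, adjusted p 0.000537, edgeR). CM libraries held 1.53, 1.06, 2.71 and 1.58 CPM and neratinib libraries 1.75, 0.545, 0.908 and 0.916 CPM. CM overlapped with control at its lowest library, PSC4 replicate 2, and was called higher by 1.25 (SE 0.37, adjusted p 0.038, edgeR). That call was lost with no cell line term (adjusted p 0.0551) and without any 1 of 6 libraries: CM PSC4 replicate 1 (adjusted p 0.0834), CM PSC5 replicate 1 (0.142), control PSC4 replicate 2 (0.0823) or 3 (0.0821), and control PSC5 replicate 1 (0.0657) or 2 (0.0507). Neratinib against control gave 0.59 (adjusted p 0.23, edgeR). Neratinib against CM gave -0.66 (adjusted p 0.253), and -1.14 (adjusted p 0.0305) without the libraries labelled PSC4 replicate 1. Leaving out only the neratinib library of that number gave -1.24 (adjusted p 0.0227).

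Clcf1 encodes cardiotrophin-like cytokine factor 1, which acts on the receptor Cntfr. It varied little in the first 3 groups, at 32.6 to 37.4 CPM in control, 29 to 41.5 CPM with TGF-beta and 37.3 to 40.9 CPM in CM. With neratinib the libraries held 60.8, 38.0, 47.6 and 48.4 CPM, all above control, with PSC4 replicate 1 highest. Clcf1 rose with neratinib against control by 0.53 (SE 0.11, adjusted p 0.00184, edgeR), and by 0.41 (adjusted p 0.0154) without the libraries labelled PSC4 replicate 1. Against CM the value was 0.34 (SE 0.12, adjusted p 0.0566, edgeR). That difference was called without the neratinib library PSC4 replicate 2 (0.46, adjusted p 0.00573), by DESeq2 (0.33, adjusted p 0.0356) and with PSC4 replicate 1 counted with PSC5 (0.34, adjusted p 0.0495, edgeR).

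**Figure D2:**
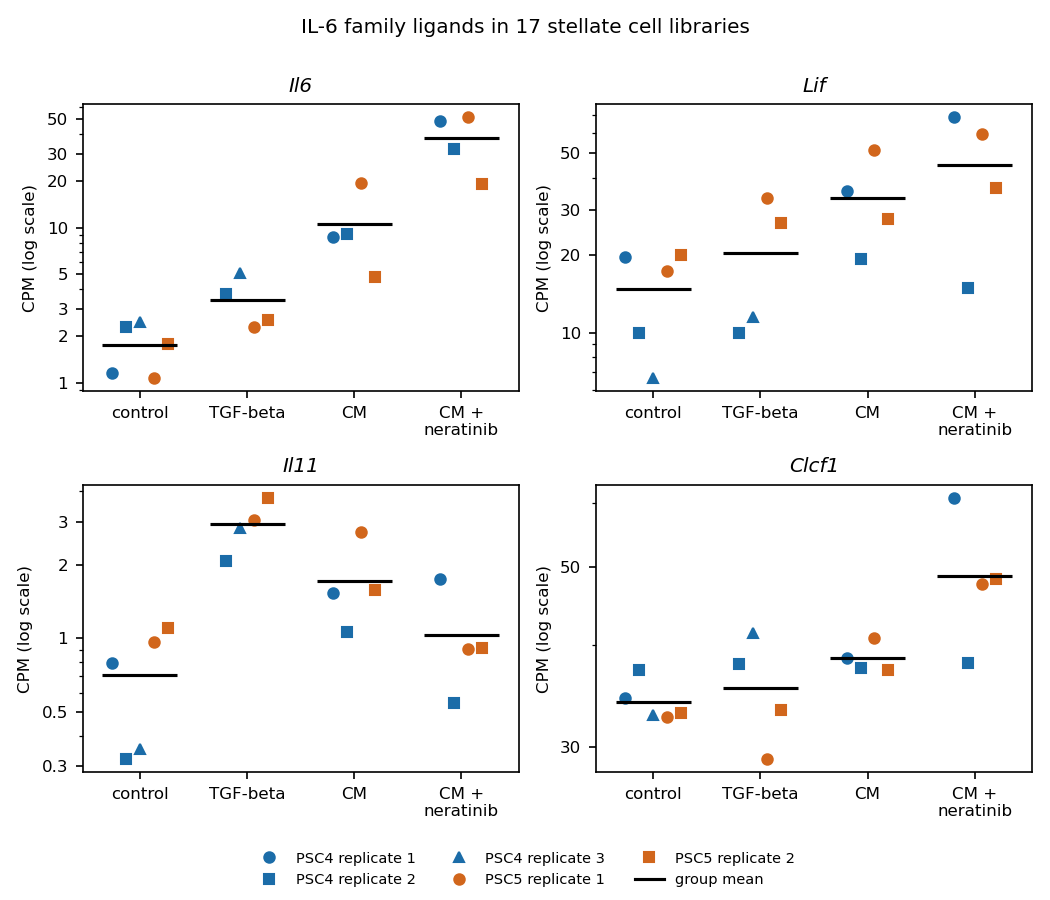
Level of the 4 ligand genes (y axis, CPM on a log scale) in each of the 17 libraries by medium (x axis), with colour for the line, shape for the replicate number and a bar at the group mean. Il6 means run from 1.75 CPM in control to 37.8 CPM with neratinib, whereas the Il11 mean is highest with TGF-beta, at 2.92 CPM.

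All 4 receptor chains were lower with TGF-beta than in any control library. In CM, Lifr and Osmr lay above every control library, and Il6st and Il6ra overlapped with control. None of the 4 was called in CM against control, where 19.8% of all genes did not overlap. Il6st, the shared chain gp130, had 533, 617, 656, 498 and 517 CPM in control and 395, 366, 367 and 242 CPM with TGF-beta. Il6st fell with TGF-beta (log2 fold change -0.70, SE 0.15, adjusted p 0.00207, edgeR). Its levels were 568 to 692 CPM in CM and 420 to 684 CPM with neratinib, overlapping control in both groups. The values against control were 0.22 in CM (95% interval -0.105 to 0.543) and 0.01 with neratinib (-0.319 to 0.332), neither called.

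Il6ra encodes the receptor chain that binds IL-6 itself and, once shed, lets it act on cells that lack the chain. Of the 4 receptor genes it alone was called in each of the 3 comparisons that involve neratinib. Control libraries held 78.3, 63.8, 71.6, 70.8 and 59.6 CPM and TGF-beta libraries 37.3, 39.6, 30.7 and 25.6 CPM. CM libraries held 67.7, 53.5, 52.7 and 57.9 CPM and neratinib libraries 46.9, 43.7, 48.9 and 35 CPM. Every neratinib library was below every control and every CM library, and the neratinib and TGF-beta ranges overlapped. Il6ra fell with TGF-beta (log2 fold change -1.04, SE 0.12, adjusted p 7.71e-06, edgeR) and with neratinib against control (-0.64, SE 0.11, adjusted p 0.000598, edgeR). In CM the value was -0.23 (SE 0.11, adjusted p 0.197, edgeR). Neratinib against CM gave -0.41 (SE 0.12, adjusted p 0.0268, edgeR), lower in 4 of 4 pairs of the same line and number. That call was lost without the libraries labelled PSC4 replicate 1 (-0.36, adjusted p 0.103), with no cell line term (adjusted p 0.0547) and with only these 2 groups fitted (adjusted p 0.0891). It was also lost without any 1 of 5 libraries: CM PSC4 replicate 1 (adjusted p 0.0811), CM PSC5 replicate 2 (0.0722), and neratinib PSC4 replicate 1 (0.0548), PSC4 replicate 2 (0.0643) or PSC5 replicate 2 (0.0911).

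Lifr, the chain that pairs with gp130 for LIF, had the largest response to TGF-beta of the 10 genes. Control libraries held 329, 445, 420, 319 and 345 CPM and TGF-beta libraries 81.6, 78.8, 70.9 and 30.8 CPM. The means were 372 ± 56.8 CPM in control (SD, n = 5) and 65.5 ± 23.6 CPM with TGF-beta (SD, n = 4), and Lifr fell (log2 fold change -2.50 ± 0.30 SE, adjusted p 1.62e-05, edgeR). CM libraries held 628, 568, 551 and 489 CPM, all above control, and the value against control was 0.61 (SE 0.28, adjusted p 0.157, edgeR). With only these 2 groups in the model it was called (0.61, adjusted p 0.00353, edgeR). With neratinib the libraries fell into a pair of low ones, PSC4 replicate 1 (200 CPM) and PSC5 replicate 2 (266 CPM), and a pair of high ones, PSC4 replicate 2 (490 CPM) and PSC5 replicate 1 (533 CPM). The low ones lay below all control libraries and the high ones above them. Neratinib against CM gave -0.57 (SE 0.29, adjusted p 0.183, edgeR), with each neratinib library below the CM library of its line and number. The replicate block gave -0.68 at an adjusted p of 0.05, just under the threshold before rounding. Leaving out neratinib PSC5 replicate 1 gave -0.88 (adjusted p 0.0339). Over all alternatives the value lay between -0.88 and -0.33, with an adjusted p of up to 0.447 (edgeR and DESeq2 fits). Without the libraries labelled PSC4 replicate 1, a fit by line gave -0.213 in PSC4, where only replicate 2 was left in each group. It gave -0.379 in PSC5, where the log2 ratios of neratinib to CM were -0.05 for replicate 1 and -0.88 for replicate 2.

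Osmr encodes the chain that pairs with gp130 for oncostatin M. Control libraries held 348, 461, 488, 405 and 371 CPM and TGF-beta libraries 204, 204, 181 and 91.8 CPM. CM libraries held 598, 606, 762 and 513 CPM and neratinib libraries 505, 626, 798 and 456 CPM. PSC5 replicate 1 was the highest library in both groups with CM, and PSC5 replicate 2 the lowest in all 3 groups other than control. Osmr fell with TGF-beta (log2 fold change -1.28, SE 0.22, adjusted p 0.000335, edgeR). In CM the value was 0.60 (SE 0.21, adjusted p 0.0759, edgeR), and 0.65 with the replicate block, where it was called (adjusted p 0.00526), as it was in 3 other alternatives (adjusted p 0.0194 to 0.0314). With neratinib against control it was 0.54 (adjusted p 0.0525), and 0.57 with the block (adjusted p 0.00361, edgeR). It was also called in 5 other alternatives, among them those without the neratinib library PSC4 replicate 1 (0.65, adjusted p 0.0417) or PSC5 replicate 2 (0.64, adjusted p 0.0407). Osm, which encodes its ligand, had at most 1 count in any library.

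**Figure D3:**
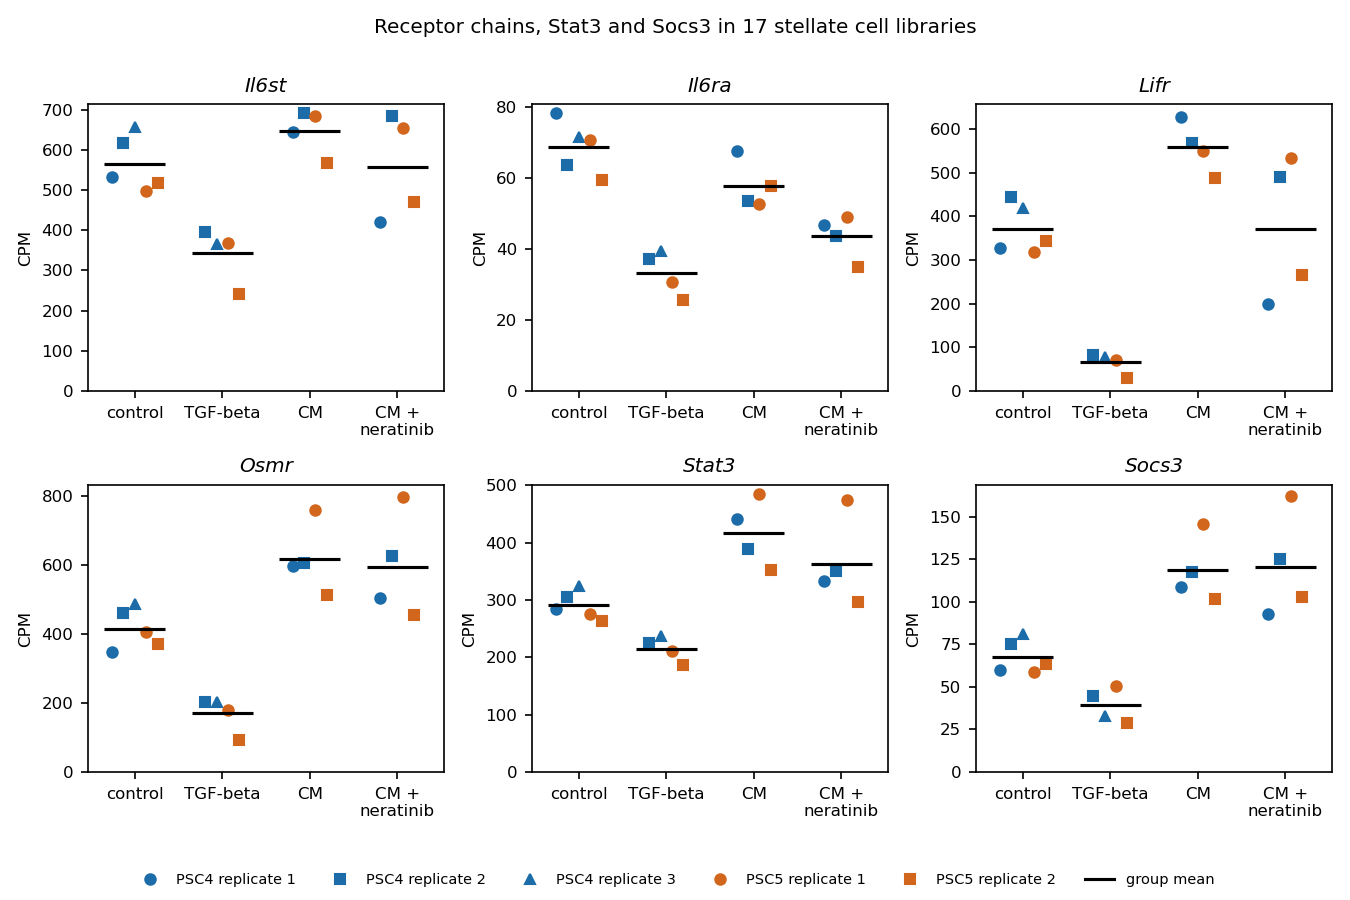
Level of the 4 receptor genes, Stat3 and Socs3 (y axis, CPM from 0) in each library by medium (x axis), with colour for the line, shape for the number and a bar at the group mean. All 6 panels show the TGF-beta libraries below every control library, and for Lifr the 4 neratinib libraries spread from 200 to 533 CPM.

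Stat3 and Socs3 moved in the same direction in each comparison with control: lower with TGF-beta, higher in CM and higher with neratinib. Stat3 had 284, 305, 325, 277 and 264 CPM in control and 224, 237, 210 and 187 CPM with TGF-beta. It had 442, 390, 486 and 352 CPM in CM and 333, 351, 474 and 296 CPM with neratinib. Every TGF-beta library was below and every CM library above all control libraries, while the lowest neratinib library, PSC5 replicate 2, lay within the control range. Stat3 fell with TGF-beta (log2 fold change -0.43, SE 0.13, adjusted p 0.0144, edgeR) and rose in CM by 0.53 (SE 0.13, adjusted p 0.0149, edgeR). The CM call was lost without CM PSC5 replicate 1 (0.43, adjusted p 0.0642). With neratinib the value against control was 0.33 (SE 0.13, adjusted p 0.0496, edgeR), and this call was lost in 12 of 19 alternatives. Among these were the removal of the libraries labelled PSC4 replicate 1 (0.37, adjusted p 0.0715) and 6 fits without 1 library: neratinib PSC4 replicate 2 (adjusted p 0.0594) or PSC5 replicate 1 (0.197), and control PSC4 replicate 1 (0.0813), PSC4 replicate 2 (0.07), PSC5 replicate 1 (0.0948) or PSC5 replicate 2 (0.112). Neratinib against CM gave -0.20 (adjusted p 0.319), and -0.38 (adjusted p 0.0143) with neratinib PSC5 replicate 1 left out. Exons of Stat3 and Stat5a share 72 bases on opposite strands, and whether counting used strand is not given in the sources used here.

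Socs3, the feedback inhibitor that STAT3 induces, had 59.8, 75.1, 81.3, 59.0 and 63.7 CPM in control and 44.5, 32.7, 50.5 and 28.8 CPM with TGF-beta. It had 109, 118, 146 and 101 CPM in CM and 93.0, 125, 162 and 103 CPM with neratinib. The 3 ranges with TGF-beta, control and CM did not overlap, and neratinib libraries covered the CM range. Socs3 fell with TGF-beta (log2 fold change -0.80, SE 0.19, adjusted p 0.00416, edgeR). It rose in CM by 0.80 (SE 0.19, adjusted p 0.013, edgeR) and with neratinib by 0.83 (SE 0.19, adjusted p 0.00299, edgeR). The CM call was lost without CM PSC5 replicate 1 (0.69, adjusted p 0.0547). Between neratinib and CM the value was 0.03, with a 95% interval of -0.395 to 0.448 (adjusted p 0.941, edgeR). Over the same libraries Il6 differed by 1.82.

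The stimuli set against each other ordered the groups further. Against TGF-beta, CM called 7 of the 10 genes higher and 0 lower, where of all genes 17.8% were higher, 17.5% lower and 35.3% either. The ranges of these groups did not overlap for 6 genes (the 4 receptor chains, Stat3 and Socs3), as for 31.5% of all genes. The largest of these differences was that of Lifr, at 3.11 (SE 0.32, adjusted p 3.94e-06, edgeR), followed by Osmr (1.88), Il6 (1.66) and Socs3 (1.60). Lif, Clcf1 and Il11 were not called. For Il11 the value was -0.78 (adjusted p 0.124, edgeR), and the replicate block called it at -1.0 (adjusted p 0.0219). It was also called without the libraries labelled PSC4 replicate 1 (-0.93, adjusted p 0.0183), with these counted with PSC5 (-1.04, adjusted p 0.00808) and from a fit of the CM and TGF-beta libraries alone (-0.78, adjusted p 0.0461). With neratinib all 10 genes were called against TGF-beta, 9 higher and Il11 lower (-1.44, SE 0.39, adjusted p 0.00795, edgeR), against 23.1% and 20.9% of all genes (44% in either direction). These ranges did not overlap for 7 genes (Il6, Il11, Il6st, Lifr, Osmr, Stat3 and Socs3), as for 30% of all genes. Of these calls, that of Lif (1.28, adjusted p 0.029) was lost without neratinib PSC4 replicate 1 (adjusted p 0.148), neratinib PSC5 replicate 1 (0.0538), TGF-beta PSC4 replicate 2 (0.0921) or TGF-beta PSC4 replicate 3 (0.0851). That of Il6ra (0.40, adjusted p 0.014) was lost without neratinib PSC5 replicate 1 (0.0511) or TGF-beta PSC5 replicate 2 (0.0503). With only these 2 groups in the model the calls of Lif (adjusted p 0.0798), Il6ra (0.0552) and Clcf1 (0.46, adjusted p 0.0534, edgeR) were lost, and that of Lif also with no cell line term (0.0784).

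Between libraries of the same line and number, Il6 was higher with neratinib than in CM in 4 of 4 pairs, by 1.4 to 2.47 on the log2 scale. Il6ra, Lifr, Stat3 and Il6st were lower in 4 of 4 pairs. The log2 ratios were -0.73 to -0.11 for Il6ra, -1.65 to -0.05 for Lifr, -0.41 to -0.04 for Stat3 and -0.62 to -0.02 for Il6st. Of these genes only Il6ra was called between the 2 groups. Clcf1 was higher in 4 of 4 pairs (0.02 to 0.65) and Lif in 3 of 4, and Socs3 ranged from -0.23 to 0.15. In pairs of CM and control, Il6, Lif, Il11, Clcf1, Il6st, Lifr, Osmr, Stat3 and Socs3 were higher in 4 of 4, with Il6 at 1.44 to 4.18, and Il6ra was lower in 4 of 4 (-0.43 to -0.04). In pairs of TGF-beta and control, Il6 (0.53 to 1.08) and Il11 (1.65 to 3.0) were higher in 4 of 4. Il6st, Il6ra, Lifr, Osmr, Stat3 and Socs3 were lower in 4 of 4 there, with log2 ratios of -3.49 to -2.17 for Lifr. The pairs use the same libraries as the group tests, and the share of all genes with 4 of 4 pairs alike was not counted.

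**Figure D4:**
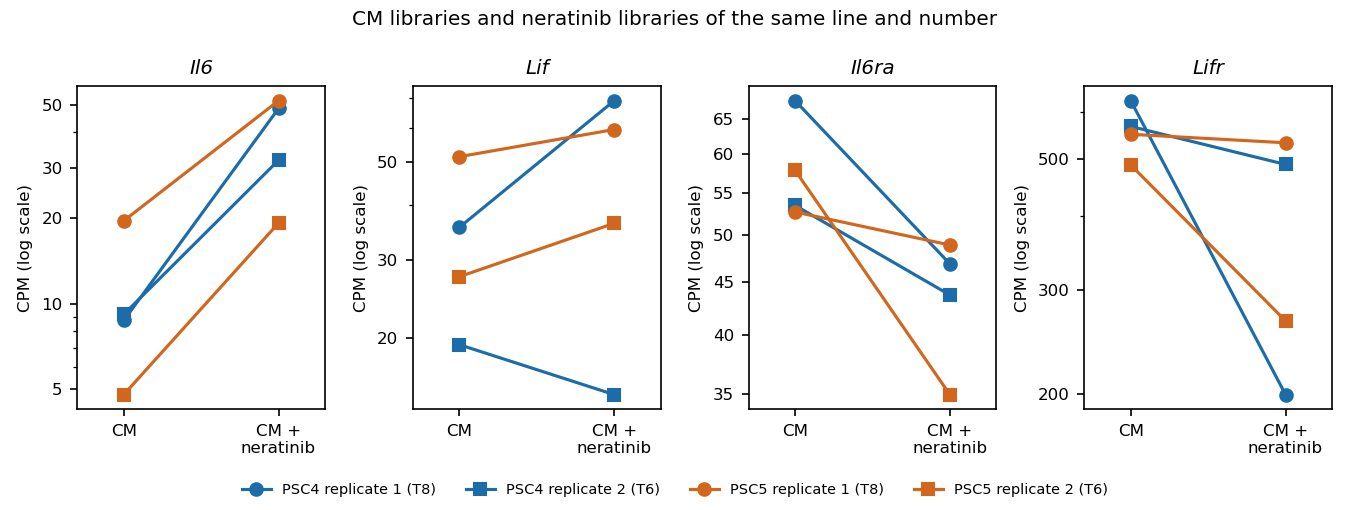
Level (y axis, CPM on a log scale) of 4 genes in CM and in CM with neratinib (x axis), each line joining the libraries of 1 cell line and replicate number. The 4 Il6 lines all go up and the 4 Il6ra and 4 Lifr lines all go down, with Lifr of PSC4 replicate 1 dropping from 628 to 200 CPM.

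The lines and the media were compared as well. A difference between PSC4 and PSC5 in the response to TGF-beta, to CM or to neratinib within CM was called for 0 of the 10 genes by edgeR, and 0 had an unadjusted p under 0.05, with 0% of all genes called. These differences had standard errors of 0.227 to 0.881 on the log2 scale, so the lines are not shown to respond alike. For Il6 in CM the response was 2.18 in PSC4 and 3.09 in PSC5. Without the libraries labelled PSC4 replicate 1, 1 gene, Il11, had an unadjusted p under 0.05 in the TGF-beta comparison (adjusted p 0.63, edgeR). Between the medium codes, 0 of 10 genes were called by edgeR, with 0% of all 13923 genes called. Of the 10 genes 2 (Il6 and Stat3) had an unadjusted p under 0.05, and the share of all genes with such a p was not counted. The mean Il6 level was 16.3 CPM in the 4 T6 libraries and 32.1 CPM in the 4 T8 libraries, and with only these 8 libraries in the model the log2 difference was -1.01 (SE 0.34, adjusted p 0.44, edgeR). The test over all 17 libraries sets that difference against the one between the same replicate numbers in control and TGF-beta libraries, and gave -1.78 (SE 0.28, adjusted p 0.131, edgeR), or -1.94 (adjusted p 0.0515) without the libraries labelled PSC4 replicate 1. In CM without neratinib the PSC4 libraries had the other order, with 9.17 CPM for T6 and 8.73 CPM for T8. For Lif the means were 24.6 CPM with T6 and 53.9 CPM with T8. The test over all libraries gave -0.54 (adjusted p 0.799, edgeR) and that over the 8 libraries -1.16 (unadjusted p 0.00251, adjusted p 0.217), where Il6 and Lif were the genes with an unadjusted p under 0.05. T6 goes with replicate number 2 and T8 with number 1 in all CM libraries.

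The other ligands and receptors of the family were listed by general knowledge. Of 8 other ligand genes 3 had enough counts to be tested, and Il31 and Ebi3 were at 0 in all libraries. Cntf was lower with neratinib than in CM (log2 fold change -0.64, adjusted p 0.036, edgeR), a call that was lost without the libraries labelled PSC4 replicate 1 (-0.62, adjusted p 0.0696).

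Of 5 other receptor genes 4 were tested, and 3 fell with TGF-beta, where 20.5% of all genes fell and 40.2% were called in either direction. With neratinib 3 were called lower than in control and 2 lower than in CM, against 20.9% and 9.63% of all genes. Il31ra, the receptor chain for interleukin-31, went from 7.76 to 18.0 CPM in control to at most 0.864 CPM with TGF-beta (log2 fold change -4.71 ± 0.62 SE, adjusted p 3.25e-05, edgeR). It held 2.56 to 7.54 CPM in CM and 0.0425 to 0.648 CPM with neratinib, where it fell against CM (-3.46, SE 0.62, adjusted p 0.00216, edgeR). Cntfr, the chain for ciliary neurotrophic factor, fell with TGF-beta (-2.20, adjusted p 0.00817, edgeR). Il11ra1, the interleukin-11 receptor, fell with TGF-beta (-1.08, adjusted p 2.05e-05, edgeR), the group in which its ligand Il11 was highest. It fell with neratinib against control (-0.66, adjusted p 0.0013). In CM it was lower (-0.41, adjusted p 0.0496), a call that was lost with RLE scaling factors. Il27ra was lower with neratinib than in control (-0.68, adjusted p 0.0109) and than in CM (-0.59, adjusted p 0.0499, edgeR). The latter call was lost with RLE factors (adjusted p 0.0508) and without the libraries labelled PSC4 replicate 1 (-0.45, adjusted p 0.124).

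Among 21 kinases, STATs and regulators of the pathway, 1 was called higher and 6 lower with TGF-beta against control, where 19.7% and 20.5% of all genes were, with a median log2 fold change of -0.229. Those lower were Jak1, Stat5a, Stat5b, Socs1, Socs2 and Cish, and the largest falls were in Cish (-1.49, adjusted p 4.94e-05, edgeR) and Socs2 (-1.15, adjusted p 0.00633), both cytokine-induced feedback inhibitors like Socs3. The gene called higher was Ptpn11 (0.13, adjusted p 0.0471), which was not called with upper-quartile factors. The number lower was 11 with the replicate block, 10 without the libraries labelled PSC4 replicate 1 and 9 with upper-quartile factors. CM called 3 higher and 0 lower (7.05% and 7.14% of all genes): Jak2 (0.93, adjusted p 0.0355, edgeR), the kinase paired with many cytokine receptors, Stat5a (0.86, adjusted p 0.00889) and the phosphatase gene Ptpn2 (0.38, adjusted p 0.0172). Neratinib called 4 higher and 8 lower than control, against 22.2% and 20.9% of all genes. Against CM it called 1 higher and 3 lower, against 10.8% and 9.63%. These counts were 1 and 1 without the libraries labelled PSC4 replicate 1, and 2 and 6 with the replicate block.

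Of 24 genes known as STAT3 targets in various cells, 15 rose and 0 fell in CM against control (edgeR), with a median log2 fold change of 0.821 against 0 over all genes, of which 7.05% were called higher. With neratinib 16 rose and 0 fell (median 0.813), against 22.2% and 20.9% of all genes. With TGF-beta 5 rose and 13 fell (median -0.564), against 19.7% and 20.5%. Without the libraries labelled PSC4 replicate 1 the counts were 16 and 0 in CM, 19 and 1 with neratinib, and 5 and 15 with TGF-beta. Several of these genes also answer to NF-kappa B or other factors, and the list was written with earlier results of these data known.

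The acute phase genes moved most. Saa3 (serum amyloid A3) rose in CM by 6.14 (SE 0.82, adjusted p 0.000391, edgeR) and Hp (haptoglobin) by 5.00 (SE 0.82, adjusted p 0.0015, edgeR). Lcn2 (lipocalin 2) had 0.934 to 5.21 CPM in control, at most 3 counts in any TGF-beta library, 27 to 101 CPM in CM and 104 to 217 CPM with neratinib. It rose with neratinib against control by 5.74 (SE 0.49, adjusted p 2.04e-06, edgeR). The transcription factor genes Bcl3 (1.31) and Cebpb (1.11) and the chemokine gene Ccl2 (1.31) rose in CM as well, with adjusted p of 0.000318, 0.00141 and 0.00064 (edgeR). With TGF-beta the 5 that rose were Bcl6, Junb, Timp1, Vegfa and Hif1a, with Vegfa at 1.72 (adjusted p 4.96e-07, edgeR) and Timp1 at 1.45 (adjusted p 0.000435). Saa3 fell with TGF-beta (-6.88, SE 1.10, adjusted p 0.000175, edgeR). Its mean was 52.3 CPM in control and 0.377 CPM with TGF-beta, so the size of this fall rests on few counts.

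Between neratinib and CM 5 of the 24 rose and 1 fell, with a median of 0.115, where 20.5% of all genes were called, 10.8% as higher and 9.63% as lower. Those that rose were Fosl2, Bcl2l1, Lcn2 (1.43, adjusted p 0.0311, edgeR), Vegfa and Hif1a (0.65, adjusted p 0.00704), and Ccl2 fell (-0.74, adjusted p 0.0181). Without the libraries labelled PSC4 replicate 1 the counts were 2 and 1, and the calls of Fosl2 (adjusted p 0.0777), Bcl2l1 (0.0969), Lcn2 (0.0704) and Ccl2 (0.0904) were lost. With the replicate block the counts were 6 and 3. The summed epithelial markers given above also differed between control and the groups with CM, and their part in these list results was not tested.

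**Figure D5:**
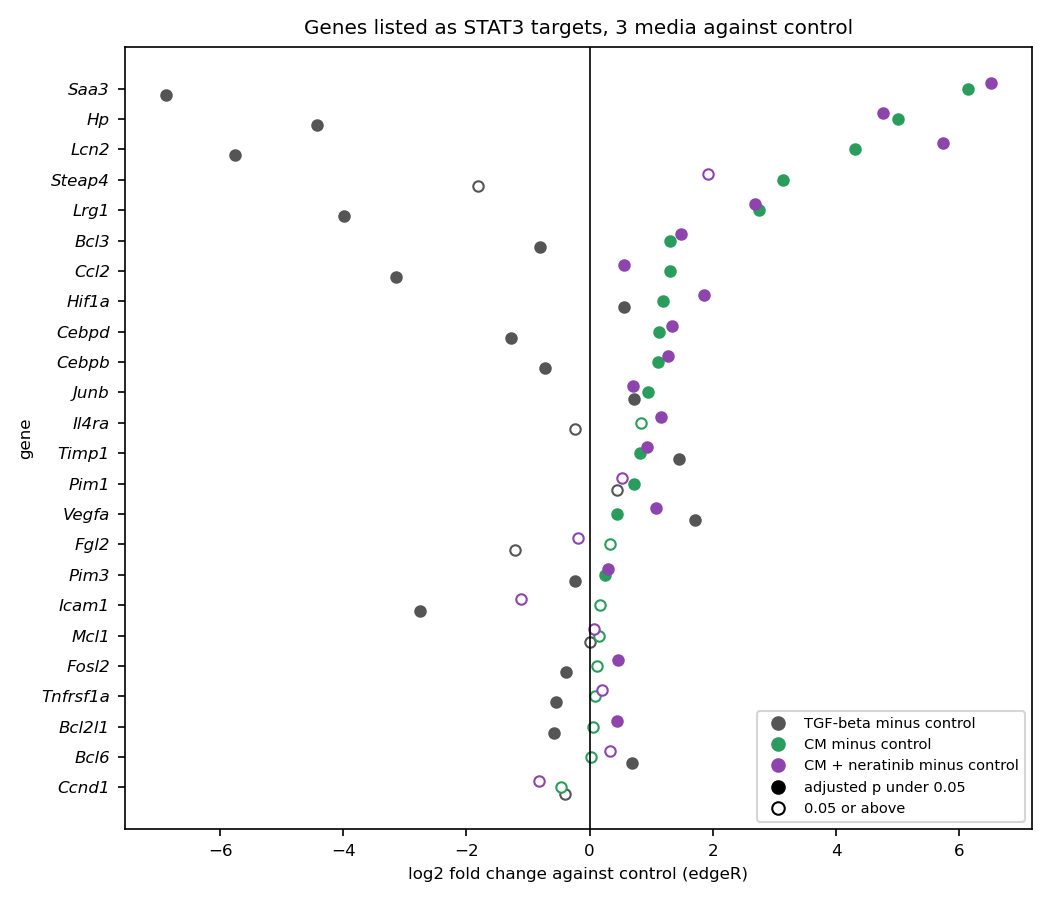
Log2 fold change against control (x axis, edgeR) of 24 genes listed as STAT3 targets (y axis, ordered by the CM value) for TGF-beta, CM and CM with neratinib, with filled points for an adjusted p under 0.05. In CM 15 points are filled and all of these lie right of 0, while 13 of the filled TGF-beta points lie left of 0; the Lcn2 point for TGF-beta rests on at most 3 counts a library.

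The genes most like 4 of the 10 genes were sought by Pearson's r of log2 CPM over the 17 libraries, among 10826 genes. Such values describe these libraries, which share media, lines and depth. For Il6 they were Hif1a (r = 0.975), Ibtk (0.971) and Arl15 (0.967). Hif1a, which encodes the oxygen-regulated factor HIF-1 alpha, had group means of 165 CPM in control, 241 with TGF-beta, 373 in CM and 587 with neratinib, the same order as Il6. For Lif they were Ubr2 (r = 0.959), Eif4enif1 (0.953) and Sec24b (0.95). For Il11 they were Cand1 (r = 0.922), Uchl1 (0.917) and Gm49336 (0.914), and Uchl1, a deubiquitinase gene, had 56.2 CPM with TGF-beta against 15.8 in control. For Socs3 they were Nek6 (r = 0.984), Ksr1 (0.974) and Tnfsf11 (0.974). Tnfsf11, which encodes the cytokine RANKL, had 2.07 CPM in control, 0.553 with TGF-beta, 28 in CM and 24.2 with neratinib.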

How the data were processed

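Libraries of mRNA were sequenced, per the labels. The deposited files give the authors' expected counts per Ensembl gene and library, estimated with Salmon 1.4.0 per the submitters' processing notes, which also name DESeq 2, GRCm38 and mm10. The transcriptome, read filters and strand setting are not given in the sources used here. Of the deposited values above 0, 74.8% were not whole, and all were rounded to whole counts. Of 35896 IDs, 35437 matched a symbol. Positions and exon lengths came from GENCODE M21 on GRCm38.

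Counts were fitted with edgeR 4.0.16 under R 4.3.3 (TMM factors, filterByExpr by group, 13923 genes, group and cell line as terms over all 17 libraries), and p-values were adjusted by Benjamini-Hochberg over all genes tested. Standard errors and 95% intervals came from the same test. A count of 3 in a library was 0.102 to 0.135 CPM, which covers counting error only. In data simulated for CM against control (13749 genes), the fit called 62% of seeded changes of 1.5-fold, 74% of 2-fold and 96% of 4-fold. Each size was seeded in 50 genes, none with few counts, and 9 unchanged genes were called. The simulated libraries held no other group or line differences, so these rates are not those of the real tests. Alternatives were upper-quartile and RLE factors, DESeq2 1.42.0, no filter, a filter of 1 CPM in 4 libraries, no cell line term, only the 2 groups compared, PSC4 replicate 1 (3 libraries) removed or treated as PSC5, each library left out, and a replicate block of line and number.

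Whether the numbers pair the libraries was checked by correlating deviations from group means across genes. For libraries of equal line and number r exceeded 0.1 in all 22 pairs (median 0.299). In 32 pairs of the same line and another number the median was -0.076, but 14 exceeded 0.1 and the highest was 0.613. Every such pair with a library labelled PSC4 replicate 1 was negative, down to -0.536. Line differences were not removed, so the check cannot tell a shared number from a shared line. The pairing therefore rests on the replicate numbers and passages in the labels.

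The 10 genes, the lists and the tests were chosen with earlier results of these data known. All 10 were named whatever their values. From the lists of other ligands, other receptors, kinases and STAT3 targets, the 2 genes in each direction with the largest called change and at least 1 CPM were named per comparison, and further list genes were named after their values were seen. Some genes that this rule picks are not reported here. Genes alike were sought among tested genes with at least 5 CPM.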

Additional observations from a re-analysis of the deposited data

How the results depend on the processing

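Of 60 results (10 genes in 6 comparisons), 36 were called. Of these 26 kept their side of the threshold in every alternative, 10 lost it in at least 1, and 0 turned sign. Of the 24 not called, 11 were called in at least 1 alternative and 7 turned sign. The number of the 10 genes called in CM against control was 7 with only these 2 groups in the model (2764 of all 13436 genes). It was 1 to 5 with 1 library left out (801 to 1793 of all genes). Between neratinib and CM it was 1 with no cell line term, 0 with only these 2 groups, and 1 to 4 with 1 library left out (1 without CM PSC4 replicate 1, CM PSC5 replicate 2 or neratinib PSC5 replicate 2, and 4 without neratinib PSC5 replicate 1). With neratinib against control, Il6st was -0.05 with upper-quartile factors, -0.02 with no cell line term and -0.12 to 0.16 with 1 library left out. Lifr there was -0.02 with upper-quartile factors and -0.25 to 0.30 with 1 library left out, and Il11 0.00 to 0.76. With 1 library left out Clcf1 with TGF-beta was -0.01 to 0.14. Between neratinib and CM, Lif was -0.16 to 0.72, Osmr -0.28 to 0.10 and Socs3 -0.16 to 0.15. The causes were not tested.

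The replicate block, paired by line and number, called 8, 6, 7, 3, 8 and 10 of the 10 genes in the 6 comparisons, in the order TGF-beta, CM and neratinib against control, neratinib against CM, and CM and neratinib against TGF-beta. Apart from the changes given beside the results for Lif, Osmr, Il11 and Lifr it changed no other call of these genes. Of all 13923 genes the block called 7091, 3240, 7300, 4563, 6039 and 7016, in the same order of comparisons. The cell line term gave 1976 in CM against control and 2850 between neratinib and CM. The totals with the cell line term rested on single libraries too. In CM against control, leaving out control PSC5 replicate 1 gave 1204 and control PSC5 replicate 2 gave 1219. Leaving out CM PSC4 replicate 2 gave 1269 and CM PSC5 replicate 1 gave 801, and counting PSC4 replicate 1 with PSC5 gave 2986. Between neratinib and CM the total was 602 with only these groups, 1782 without CM PSC4 replicate 1 and 1748 without neratinib PSC5 replicate 2. With upper-quartile factors 37.5% of the genes called in CM against control and 41.1% of those called with neratinib against control were higher, against 49.7% and 51.4% with TMM. Il11 rested on 9 to 31 counts in a control library.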
